A study of Mus musculus with 16 samples.

Results

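The cholesterol and lipid metabolism genes comprised 34 listed genes of sterol synthesis, sterol regulation and efflux, fatty acid synthesis, and lipid uptake and storage, out of 51912 genes in the table of raw counts. They were listed by name and function, with earlier results of these data known, and all 34 were found by symbol. The libraries came from lung ILC2s, the group 2 innate lymphoid cells that make type 2 cytokines, of WT mice and of *Pac1*-/- mice (C57BL/6J background), which lack the phosphatase encoded by *Dusp2* in every cell. ILC2s of each genotype received IL-7 alone, IL-7 with IL-33, IL-7 with IL-33 and the neuropeptide CGRP, or IL-7 with IL-33 and the neuropeptide NMU, so IL-7 was present in every group. They are called the IL-7, IL-33, CGRP, and NMU libraries here. Stimulation lasted 4 hours, about 500 sorted cells were lysed for each library, and mice of the study were 6 to 8 weeks old. In the study's culture method, sorted lung ILC2s were expanded for 1 to 2 weeks with IL-2 and IL-7 before stimuli were added. Its methods for RNA sequencing do not repeat this step. There were 2 libraries for each combination of genotype and treatment and 16 in all. No source used here says whether both libraries of a combination came from separate mice or cultures, so the *P* values measure the spread between these libraries, which may be technical.

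Cells build cholesterol from acetyl-CoA through the mevalonate pathway, which ends in farnesyl diphosphate, and then through squalene and a series of sterol intermediates. The transcription factors SREBP-1 and SREBP-2, encoded by *Srebf1* and *Srebf2*, switch on these enzymes when sterols are scarce. SCAP escorts the SREBPs to the Golgi apparatus for activation and INSIG1 holds them back. Surplus cholesterol leaves through the transporters ABCA1 and ABCG1. Fatty acids enter through CD36, are made by FASN and desaturated by SCD1, and are stored as triglyceride by the DGAT enzymes in droplets coated by PLIN2. Lung ILC2s are known to express *Pparg*, a nuclear receptor that drives lipid uptake genes, and to take up and store lipids when activated.

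Promoters were examined because many sterol enzymes share binding sequences for SREBP and its partner NF-Y. RefSeq (GRCm38.p6, the build of the files) gave windows from 250 bases before to 50 bases after a gene start for 25 of the 34 members, with 33 windows in all. The 4 printed below belong to the 3 sterol enzymes with the smallest *P* values for CGRP, and to *Cd36*, the member with the smallest *P* value for NMU. Each is written 5′ to 3′ on the strand of its gene. Capitals mark the NF-Y box, CCAAT or ATTGG on the opposite strand, and in *Hmgcs1* also the 9 letters that match the sterol regulatory element.
Hmgcs1, chr13:119690101-119690400, plus strand: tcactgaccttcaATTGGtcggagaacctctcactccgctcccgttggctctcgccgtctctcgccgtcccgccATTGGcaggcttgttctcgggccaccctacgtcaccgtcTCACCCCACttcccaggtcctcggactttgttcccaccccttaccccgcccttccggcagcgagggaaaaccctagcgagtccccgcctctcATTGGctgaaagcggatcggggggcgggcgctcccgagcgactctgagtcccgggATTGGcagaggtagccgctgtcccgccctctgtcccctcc
Msmo1, chr8:64733529-64733828, minus strand: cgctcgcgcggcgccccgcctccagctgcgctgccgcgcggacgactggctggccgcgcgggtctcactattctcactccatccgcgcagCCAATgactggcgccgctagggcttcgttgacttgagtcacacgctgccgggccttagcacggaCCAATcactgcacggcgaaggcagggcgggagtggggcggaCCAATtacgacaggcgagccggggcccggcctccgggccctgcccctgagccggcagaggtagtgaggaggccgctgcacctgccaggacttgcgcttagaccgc
Ebp, chrX:8193463-8193762, minus strand: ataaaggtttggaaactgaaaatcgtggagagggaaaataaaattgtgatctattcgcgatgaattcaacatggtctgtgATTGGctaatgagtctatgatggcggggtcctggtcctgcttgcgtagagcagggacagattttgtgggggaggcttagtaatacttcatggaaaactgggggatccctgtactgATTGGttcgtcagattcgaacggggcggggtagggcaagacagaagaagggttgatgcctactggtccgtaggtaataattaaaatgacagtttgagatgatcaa
Cd36, chr5:17835847-17836146, minus strand: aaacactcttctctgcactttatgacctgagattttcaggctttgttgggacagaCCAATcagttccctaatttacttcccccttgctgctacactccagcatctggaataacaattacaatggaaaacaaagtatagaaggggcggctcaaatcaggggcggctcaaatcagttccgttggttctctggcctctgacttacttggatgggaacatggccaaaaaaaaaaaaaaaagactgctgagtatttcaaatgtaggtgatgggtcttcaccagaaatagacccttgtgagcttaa

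Among the 25 members with a window, *Hmgcs1* was the only one with the sterol regulatory element, searched as TCACNCCAC on both strands. The other members could not be searched. Its match, TCACCCCAC, lay at position -137 relative to the gene start, and 4 NF-Y boxes lay in the same window. *Msmo1* held 3 NF-Y boxes, *Ebp* 2, and *Cd36* 1. Among all 32851 promoter windows, 1.242% held the sterol regulatory element and 37.41% held an NF-Y box, against 1 of 33 (3.03%) and 23 of 33 (69.7%) member windows. The Sp1 box, GGGCGG, was in 26 of 33 member windows (78.79%) and in 35.66% of all windows. The cAMP response element, TGACGTCA, was in 0 of 33 member windows and in 1.79% of all. The only overlap between matches in the member windows was between a pair of NF-Y boxes in *Fasn*. These counts describe letters, not bound factors, and a window without a match says nothing about the factor.

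Total counts per library ranged from 6764992 to 15963357, and 3 counts corresponded to 0.188 to 0.443 CPM (a gene's share of the counts of a library on the usual CPM scale, here normalised by the TMM method). Genes with any count numbered 16211 and 15497 in *Pac1*-/- and 14014 and 13745 in WT IL-33 libraries. With CGRP the numbers were 15570 and 15655 against 12897 and 13776, while with IL-7 and with NMU the genotypes overlapped. The part of this difference in members at or near 0 in 1 genotype, such as *Scd1* and *Mvd*, was not tested. The target gene *Dusp2* had 0 counts in 8 of 8 *Pac1*-/- libraries but also in 6 of 8 WT libraries, so it checks few of the genotype labels. The 10 ILC2 markers, among them *Gata3*, *Il1rl1*, and *Rora*, summed to 7031 to 11373 CPM in every library. Both WT NMU libraries stood apart in a list of 6 alveolar type 2 markers. These summed to 202 and 112 CPM there, against 0.158 to 1.72 CPM in the other 14 libraries. Only *Sftpc* (179 and 94.6 CPM) and *Sftpa1* (22.8 and 17.2 CPM) carried the sum. *Sftpb* and *Sftpd* were at 0 in both libraries, and *Lamp3* and *Slc34a2* did not exceed 0.668 CPM in them. The 9 macrophage markers summed to 123 and 39.7 CPM there, mostly *Lyz2*, against at most 16.8 CPM elsewhere. *Marco* and *Siglecf*, which define alveolar macrophages, were at 0 in both. Likewise 3 B cell markers summed to 108 and 119 CPM in the *Pac1*-/- CGRP libraries and to at most 16.3 CPM elsewhere. The 4 T cell markers summed to 77 to 112 CPM in the IL-7 libraries, mostly *Cd3d*, and to at most 28.2 CPM in the other 12, with *Cd8a* at 0 in all. Adipocyte markers, *Adipoq* and *Plin1*, did not exceed 0.668 CPM in sum. In bulk libraries, fewer cells of a type and less RNA per cell cannot be told apart.

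Levels of the members spanned several orders of magnitude. On the TPM scale, which corrects for gene length, *Pparg* led with a median of 204 over the 16 libraries, followed by the sterol desaturase gene *Sc5d* at 148, the sterol oxidase gene *Msmo1* at 126, the triglyceride synthase gene *Dgat1* at 121, the sterol isomerase gene *Ebp* at 105, and *Idi1*, which makes the isoprenoid building block, at 91.6. *Insig1* had a median of 75.9 TPM, and *Plin2* 50.3 TPM. The regulators *Srebf2* (5.46 TPM), *Srebf1* (4.89 TPM), and *Scap* (3.50 TPM) and the transporters *Abca1* (2.06 TPM) and *Abcg1* (0.476 TPM) were low. Counts were at least 10 in every library for 20 members, while 13 members had at least 1 library at 0. *Fdps* and *Dhcr7* never exceeded 29 counts, and *Scd1* was at 0 in 10 libraries. Low values of *Fdps* are uncertain for another reason, since 6 other genes carry near-identical stretches of its transcript. *Fdft1*, *Idi1*, *Hmgcs1*, *Cyp51*, *Insig1*, *Acat2*, *Acaca*, *Scd2*, *Fabp5*, *Plin2*, *Lss*, *Srebf1*, and *Scap* also share such stretches with 1 to 3 other genes, whereas none was found for *Msmo1*, *Ebp*, *Pmvk*, *Cd36*, *Dgat1*, *Abca1*, *Fasn*, or *Nsdhl*.

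**Figure D1:**
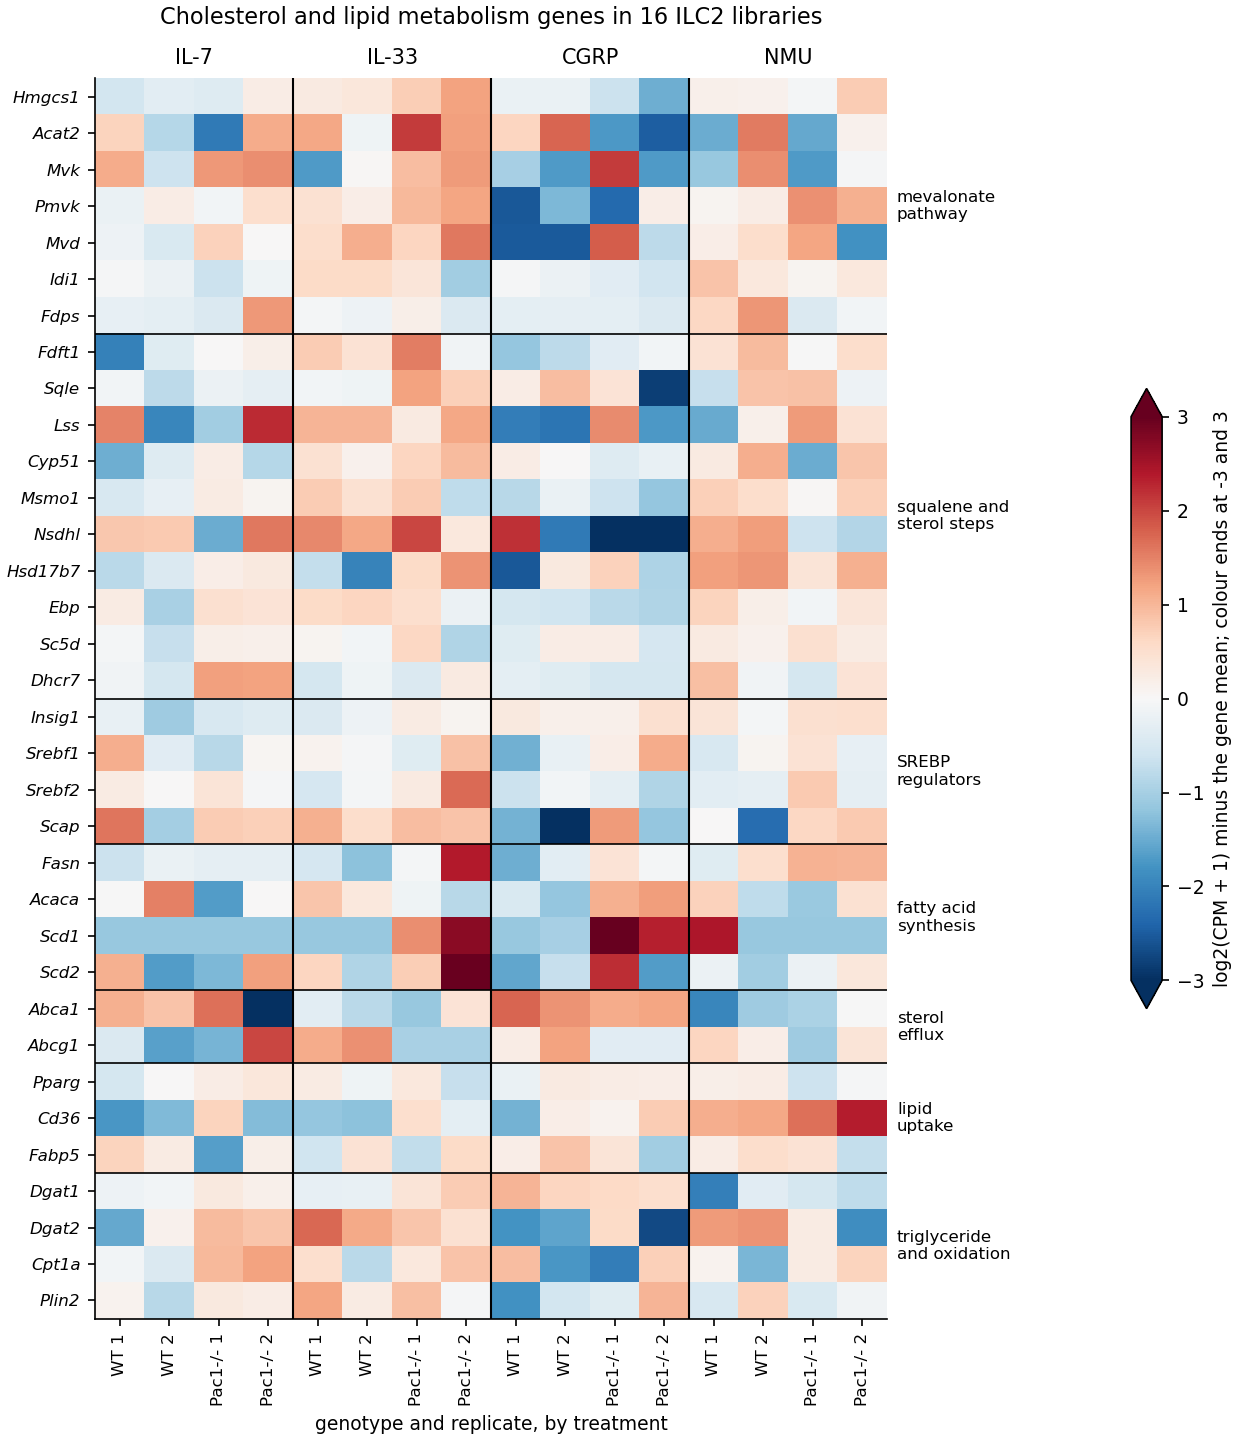
Each row is a member and each column a library, coloured by log2(CPM + 1) minus the mean of that gene over the 16 libraries, with the 7 functional groups separated by lines. Most sterol enzymes are blue in the CGRP columns, *Cd36* is red in the NMU columns, and members at 0 in some libraries, such as *Scd1*, *Nsdhl*, and *Mvd*, vary within single groups.

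Treatments were compared over both genotypes, with 4 libraries a side and all 16 in the fit (quasi-likelihood test of edgeR, *P* values adjusted by Benjamini and Hochberg over 14979 genes, called at an adjusted *P* value under 0.05 and a fold change above 1.5). All 34 members passed the filter on low counts in this fit. IL-33, CGRP, and NMU comparisons below share libraries with each other, so their values for a gene are not independent.

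With IL-33, most sterol enzymes had positive log2 fold changes over IL-7 alone, but no member passed the cutoff. *Hmgcs1*, which makes HMG-CoA in the mevalonate pathway, had 60.0 and 71.2 CPM in WT and 67.6 and 103 CPM in *Pac1*-/- ILC2s with IL-7. With IL-33, its values were 107 and 112 CPM in WT and 148 and 204 CPM in *Pac1*-/- ILC2s. All 4 IL-33 values lay above all 4 IL-7 values, though the difference of 0.91 ± 0.31 (log2 fold change ± SE) had an edgeR adjusted *P* of 0.498. *Fdft1*, which encodes squalene synthase, had 11.8 and 39.4 CPM in WT and 51.5 and 57.9 CPM in *Pac1*-/- libraries with IL-7, and 87.0, 69.6, 148, and 46.9 CPM in the same order with IL-33. These groups overlapped through the second *Pac1*-/- IL-33 library (log2 fold change 1.19 ± 0.43, edgeR adjusted *P* = 0.498). *Cyp51*, the lanosterol demethylase gene, had 29.9, 63.9, 97.4, and 45.9 CPM with IL-7 and 115, 91.8, 132, and 161 CPM with IL-33 (log2 fold change 1.08 ± 0.45, edgeR adjusted *P* = 0.502). Only the lowest IL-33 value of *Cyp51* fell within the IL-7 range.

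Of the 17 sterol enzymes, 14 had positive log2 fold changes with IL-33, with a median of 0.48. Over all genes tested, 53.2% were positive and the median was 0.06. The members called numbered 0, against 0.0134% of all genes. At an unadjusted *P* under 0.05 there were 4 members (11.8%), all higher with IL-33, against 9.49% of all genes, and they were *Hmgcs1*, *Fdft1*, *Cyp51*, and the SREBP brake *Insig1* (log2 fold change 0.46 ± 0.21). Only *Hmgcs1* did not overlap between the groups on the higher side (2.94% of members, against 2.65% of all genes), and 0 members did on the lower side (2.59% of all genes). Without the first *Pac1*-/- IL-33 library, the members under this unadjusted *P* numbered 1. The T cell markers separate the IL-7 from the IL-33 libraries completely (77 to 112 CPM against 3.91 to 14.5 CPM), and their part in these values was not tested. DESeq2 called 1 member (1.15% of all genes), *Scd1*, which had 0 counts in all 4 IL-7 libraries and in both WT IL-33 libraries.

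With CGRP added to IL-33, all 17 sterol enzymes had negative log2 fold changes, with a median of -1.21, although edgeR called none of them. Over all genes tested, the median was -0.05 and 52% were negative. *Hmgcs1* lay below its IL-33 range in every CGRP library, with 76.1 and 76.6 CPM in WT and 56.1 and 31.4 CPM in *Pac1*-/- ILC2s, but its log2 fold change of -1.21 ± 0.32 had an edgeR adjusted *P* of 0.0595. *Ebp*, which encodes the sterol isomerase, had 146 and 151 CPM in WT and 139 and 85.8 CPM in *Pac1*-/- ILC2s with IL-33. With CGRP its values were 67.2 and 64.1 CPM in WT and 54.7 and 51.3 CPM in *Pac1*-/- ILC2s, again with no overlap (log2 fold change -1.13 ± 0.30, edgeR adjusted *P* = 0.0626). Its spread in the CGRP libraries was small (59.3 ± 7.53 CPM, SD, *n* = 4).

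*Msmo1*, which encodes the oxidase that removes methyl groups from sterols, had 705 and 566 CPM in WT and 709.7 and 245 CPM in *Pac1*-/- ILC2s with IL-33. With CGRP it had 233 and 359.7 CPM in WT and 271 and 184 CPM in *Pac1*-/- ILC2s (log2 fold change -1.09 ± 0.30, edgeR adjusted *P* = 0.0755). The overlap came from the second *Pac1*-/- IL-33 library, which was also the lowest of the IL-33 libraries for *Ebp*, *Fdft1*, and *Idi1*. *Pmvk*, the phosphomevalonate kinase gene, showed a larger and more variable difference, from 19.2, 15.7, 27.5, and 32.4 CPM with IL-33 to 1.51, 4.72, 1.93, and 15.8 CPM with CGRP (log2 fold change -2.09 ± 0.60, edgeR adjusted *P* = 0.0825). Its highest CGRP library, the second *Pac1*-/- one, just exceeded the lowest IL-33 library. *Fdft1* had 22.3 and 28.8 CPM in WT and 40.3 and 48.2 CPM in *Pac1*-/- ILC2s with CGRP (log2 fold change -1.37 ± 0.43, edgeR adjusted *P* = 0.124). The abundant *Sc5d* stood out by a log2 fold change of only -0.09 ± 0.28.

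The 5 enzymes named above were the members at an unadjusted *P* under 0.05 (14.7%, against 15.8% of all genes), and 0 members were called by edgeR, against 2.46% of all genes. With DESeq2 and the same cutoff, these 5 were called (14.7%, against 7.2% of all genes), all lower with CGRP. Without the first *Pac1*-/- CGRP library, 9 members had an unadjusted *P* under 0.05. *Hmgcs1* and *Ebp* did not overlap on the lower side (5.88% of members, against 3.89% of all genes). The sterol exporter gene *Abca1* alone did so on the higher side (2.94%, against 5.82% of all genes), with 5.95 and 3.90 CPM in WT and 2.90 and 10.4 CPM in *Pac1*-/- ILC2s with IL-33, and 28.1, 21, 17.8, and 18.6 CPM with CGRP. Its log2 fold change was 1.91 ± 1.06 (edgeR adjusted *P* = 0.393). *Insig1*, an SREBP target like the enzymes, differed in sign from them (0.34 ± 0.21), and *Srebf2* had -0.98 ± 0.47. For *Srebf2* the value was -0.06 ± 0.71 within WT and -1.80 ± 0.74 within *Pac1*-/- ILC2s, where the second IL-33 library had the highest level of the series (72.4 CPM). Within WT alone 11 of 14 enzymes tested were lower with CGRP, and within *Pac1*-/- alone 14 of 15, with medians of -0.58 and -1.07. With CGRP, the B cell markers summed to 0.623 and 16.3 CPM in WT and to 108 and 119 CPM in *Pac1*-/- libraries. Their part in these values was not tested. Leaving out the second *Pac1*-/- CGRP library left 13 of 17 enzymes negative, and *Pmvk* was then called. Leaving out the second *Pac1*-/- IL-33 library led to calls of *Msmo1* and *Ebp*, and leaving out the first WT CGRP library to a call of *Nsdhl*.

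**Figure D2:**
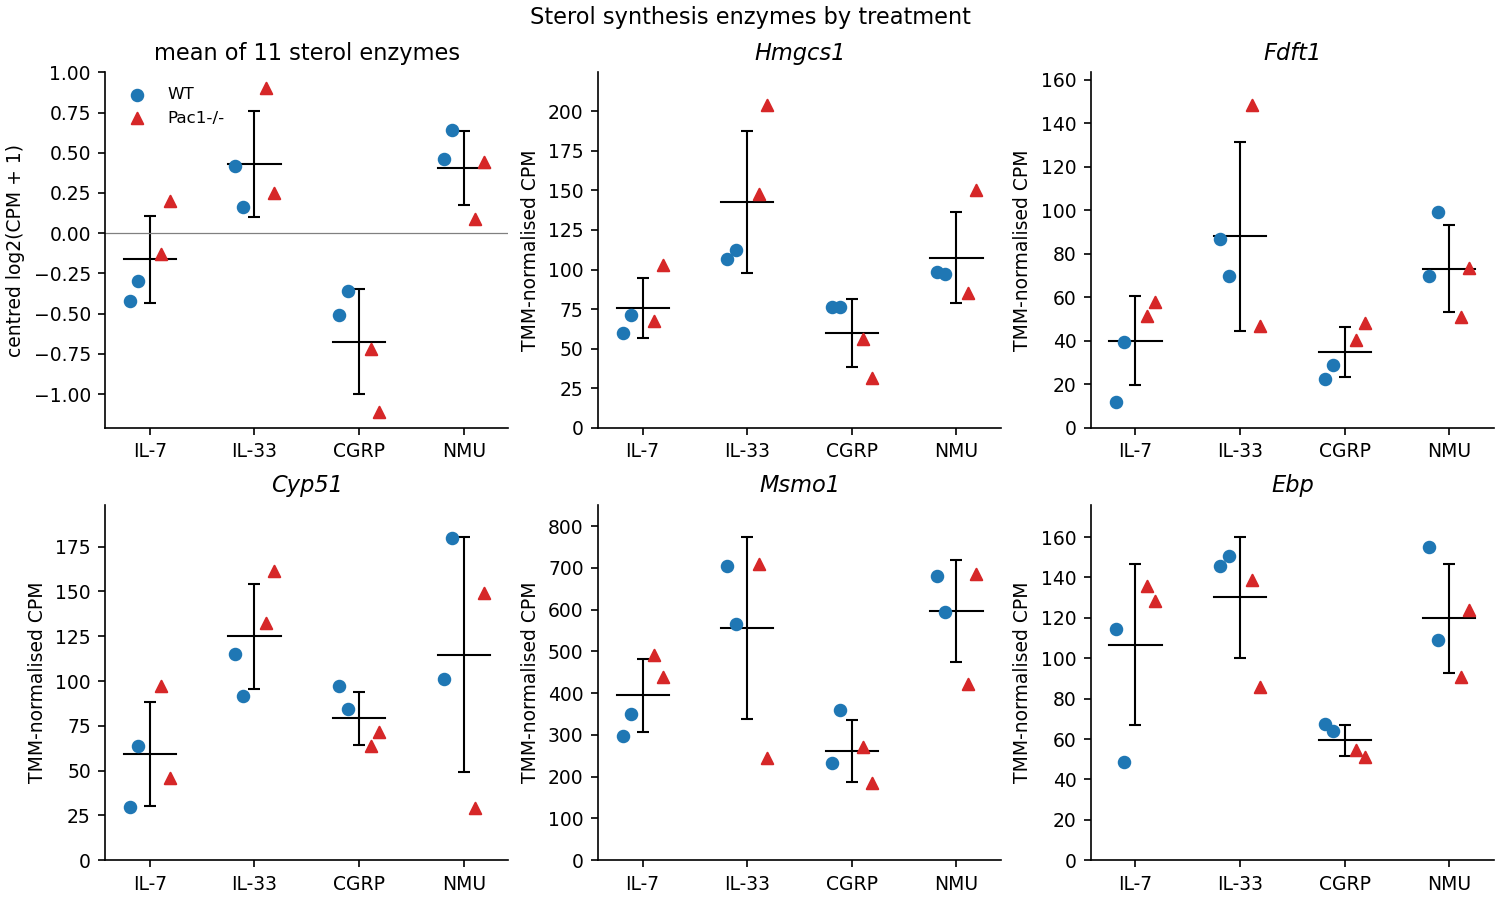
Points are libraries (circles WT, triangles *Pac1*-/-), lines are means, and bars are SD of the 4 libraries per treatment. The first panel shows the mean, over the 11 sterol enzymes with a mean of at least 10 CPM, of log2(CPM + 1) centred on each enzyme, and the others show TMM-normalised CPM. The 11-enzyme level lay between -1.11 and -0.36 in the CGRP libraries and between 0.09 and 0.90 in the IL-33 and NMU libraries.

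As a description of the enzymes together, the centred level over the 11 enzymes with a mean of at least 10 CPM was -0.51 and -0.36 in the WT and -0.72 and -1.11 in the *Pac1*-/- CGRP libraries. It was 0.42, 0.16, 0.90, and 0.25 with IL-33, 0.46, 0.64, 0.09, and 0.44 with NMU, and -0.42, -0.30, -0.13, and 0.20 with IL-7. The CGRP libraries therefore lay below all IL-33 and NMU libraries and overlapped the IL-7 libraries. The summed level of all 17 enzymes, which *Msmo1*, *Sc5d*, and *Idi1* dominate, was 785 to 1295 CPM with CGRP and 1511 to 1985 CPM with NMU. It was 1225 to 2281 CPM with IL-33, where the lowest value was that of the second *Pac1*-/- library.

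With NMU added to IL-33, the sterol enzymes showed no common direction, and *Cd36* and *Dgat1* had the smallest *P* values. Of the 17 enzymes, 7 were higher and 10 lower than with IL-33, with a median of -0.12, beside -0.08 over all genes, of which 54.7% were negative. *Cd36*, the fatty acid transporter gene, had 13.7 and 13.0 CPM in WT and 45.2 and 25.7 CPM in *Pac1*-/- ILC2s with IL-33. With NMU, it had 68.0 and 71.6 CPM in WT and 102 and 165 CPM in *Pac1*-/- ILC2s. Every NMU value exceeded every IL-33 value, and indeed every value of the other 3 treatments. The log2 fold change was 2.15 ± 0.46, or 4.44-fold, with an edgeR adjusted *P* of 0.108. DESeq2 called *Cd36* (adjusted *P* = 0.000346, with 1.72% of all genes called), and so did edgeR on the 8 libraries of both treatments alone (adjusted *P* = 0.0256). Values within genotypes were 2.41 ± 0.42 in WT and 1.92 ± 0.48 in *Pac1*-/- ILC2s. The WT NMU libraries carry *Sftpc*, *Sftpa1*, and *Lyz2* transcripts, whose part in the *Cd36* values was not tested. Nor was the part of 2 endothelial markers, *Cdh5* and *Pecam1*. These summed to 59.9 and 90.5 CPM in WT and 45.1 and 36.0 CPM in *Pac1*-/- NMU libraries, and to 14.7 to 52.2 CPM elsewhere. *Pecam1* carried nearly all of the sum. *Cdh5* had 3.08 and 0 CPM in WT and 0.191 and 0 CPM in *Pac1*-/- NMU libraries, and at most 6.06 CPM elsewhere. The alveolar list summed to 202 and 112 CPM in the WT and 1.72 and 0.991 CPM in the *Pac1*-/- NMU libraries.

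*Dgat1*, which encodes an enzyme for the last step of triglyceride synthesis, was lower with NMU. It had 161 and 168 CPM in WT and 218 and 198 CPM in *Pac1*-/- ILC2s with IL-7. It had 149.6 and 152 CPM in WT and 233 and 304 CPM in *Pac1*-/- ILC2s with IL-33, and 42.5, 141, 123, and 105 CPM with NMU (log2 fold change -1.0 ± 0.30, edgeR adjusted *P* = 0.374). The groups did not overlap. *Insig1* ranked next by *P* value among the members, with 84.3, 102, 135, and 121 CPM with IL-33 and 148, 110.1, 160.0, and 162 CPM with NMU (log2 fold change 0.40 ± 0.21, edgeR adjusted *P* = 0.757). *Pparg* itself was nearly level, at 285 ± 67.7 CPM with NMU and 288 ± 83.0 CPM with IL-33 (SD, *n* = 4), with a log2 fold change of -0.01 ± 0.25. At an unadjusted *P* under 0.05 there were 2 members, *Cd36* and *Dgat1* (5.88%, against 6.74% of all genes), and 0 members were called by edgeR, against 0.154% of all genes. Without the second WT NMU library, 4 members had an unadjusted *P* under 0.05. *Cd36* was the member without overlap on the higher side (2.94%, against 2.27% of all genes) and *Dgat1* the one on the lower side (2.94%, against 2.08%).

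**Figure D3:**
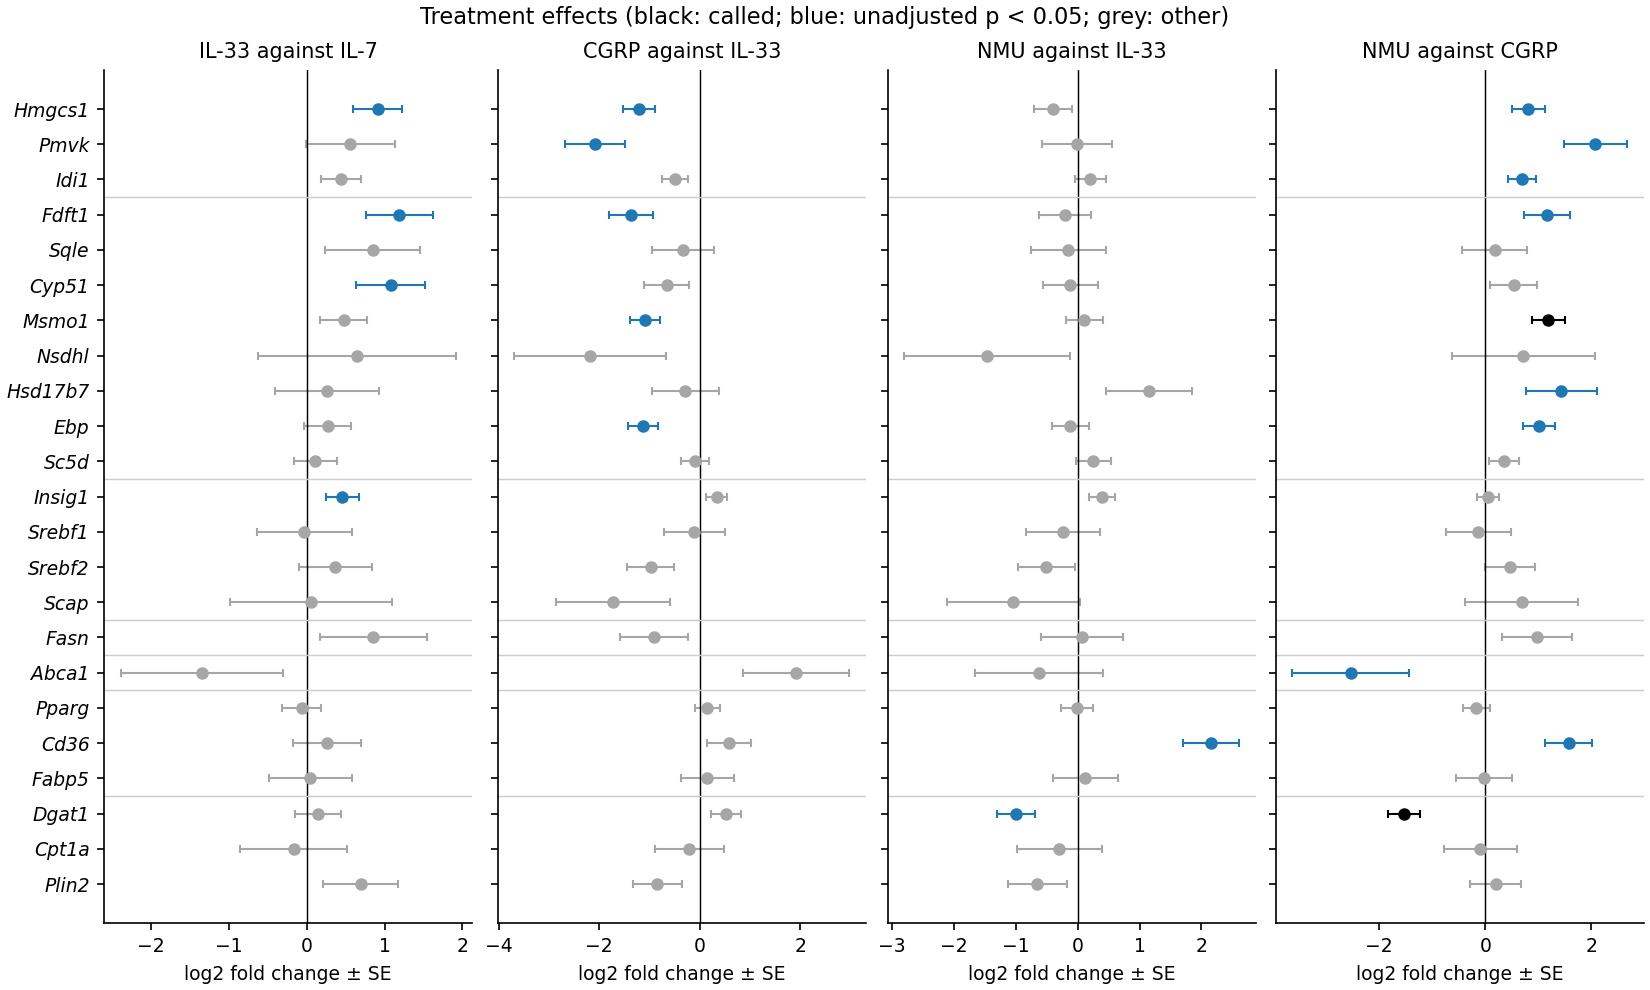
Log2 fold change with SE for the 23 members with a mean of at least 10 CPM, in the 4 treatment comparisons, each panel with its own axis. Black marks the members called by edgeR (*Dgat1* and *Msmo1* for NMU against CGRP), blue those at an unadjusted *P* under 0.05, and grey the others.

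The neuropeptides compared directly gave the only members called in the main edgeR fits, 2 of 34 (5.88%, against 4.97% of all genes). With NMU, *Dgat1* fell and *Msmo1* rose relative to CGRP. *Dgat1* had 363 and 280.1 CPM in WT and 269 and 253 CPM in *Pac1*-/- ILC2s with CGRP, all above the 42.5 to 141 CPM of the NMU libraries (log2 fold change -1.53 ± 0.31, edgeR adjusted *P* = 0.00772). *Msmo1* had 681 and 595 CPM in WT and 423 and 684 CPM in *Pac1*-/- ILC2s with NMU, above its highest CGRP value of 359.7 CPM (log2 fold change 1.19 ± 0.30, 2.28-fold, edgeR adjusted *P* = 0.0321). Both genes had the same direction within each genotype. *Dgat1* had -1.82 ± 0.61 in WT and -1.21 ± 0.25 in *Pac1*-/- ILC2s, and *Msmo1* had 1.09 ± 0.31 and 1.27 ± 0.35. With 4 libraries and these estimates of the spread, neither was called within a genotype. All 17 sterol enzymes had positive log2 fold changes of NMU over CGRP (median 1.01, beside -0.08 and 47.5% positive over all genes). Of these, 7 had an unadjusted edgeR *P* under 0.05, as did 19.8% of all genes. The 17 include *Fdps* and *Dhcr7*, which had at most 2 counts in any CGRP library. Within WT alone 10 of 13 enzymes tested were higher with NMU, and within *Pac1*-/- alone 13 of 15, with medians of 0.70 and 0.69.

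*Cd36* was 1.57 ± 0.45 higher with NMU on the log2 scale (edgeR adjusted *P* = 0.0555), from 11.1, 36.6, 34, and 54.3 CPM with CGRP. *Pmvk* (2.08 ± 0.60) and *Ebp* (1.01 ± 0.30) had edgeR adjusted *P* values of 0.0571 and 0.0664. *Abca1*, at 1.23, 3.12, 3.44, and 7.56 CPM with NMU, was below all CGRP libraries (log2 fold change -2.54 ± 1.10, edgeR adjusted *P* = 0.215). In all, 2 members (5.88%) were called, against 4.97% of all genes, and 10 (29.4%) had an unadjusted *P* under 0.05, against 19.8%. On the higher side 6 members (17.6%, against 6.46% of all genes) did not overlap, namely *Hmgcs1*, *Idi1*, *Fdft1*, *Msmo1*, *Ebp*, and *Cd36*. On the lower side they were *Abca1* and *Dgat1* (5.88%, against 6.86%). DESeq2 called 5 members (14.7%, against 11.4% of all genes), *Dgat1*, *Pmvk*, *Cd36*, *Msmo1*, and *Ebp*. The call of *Dgat1* held when any 1 of the 8 CGRP and NMU libraries was left out. The IL-7 and IL-33 libraries were not left out in turn. With edgeR on the 8 libraries of both treatments alone, *Dgat1* had an adjusted *P* of 0.0538. The call of *Msmo1* was lost without either *Pac1*-/- CGRP library, the first WT CGRP library, either WT NMU library, or the second *Pac1*-/- NMU library (edgeR adjusted *P* = 0.056 to 0.106).

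**Figure D4:**
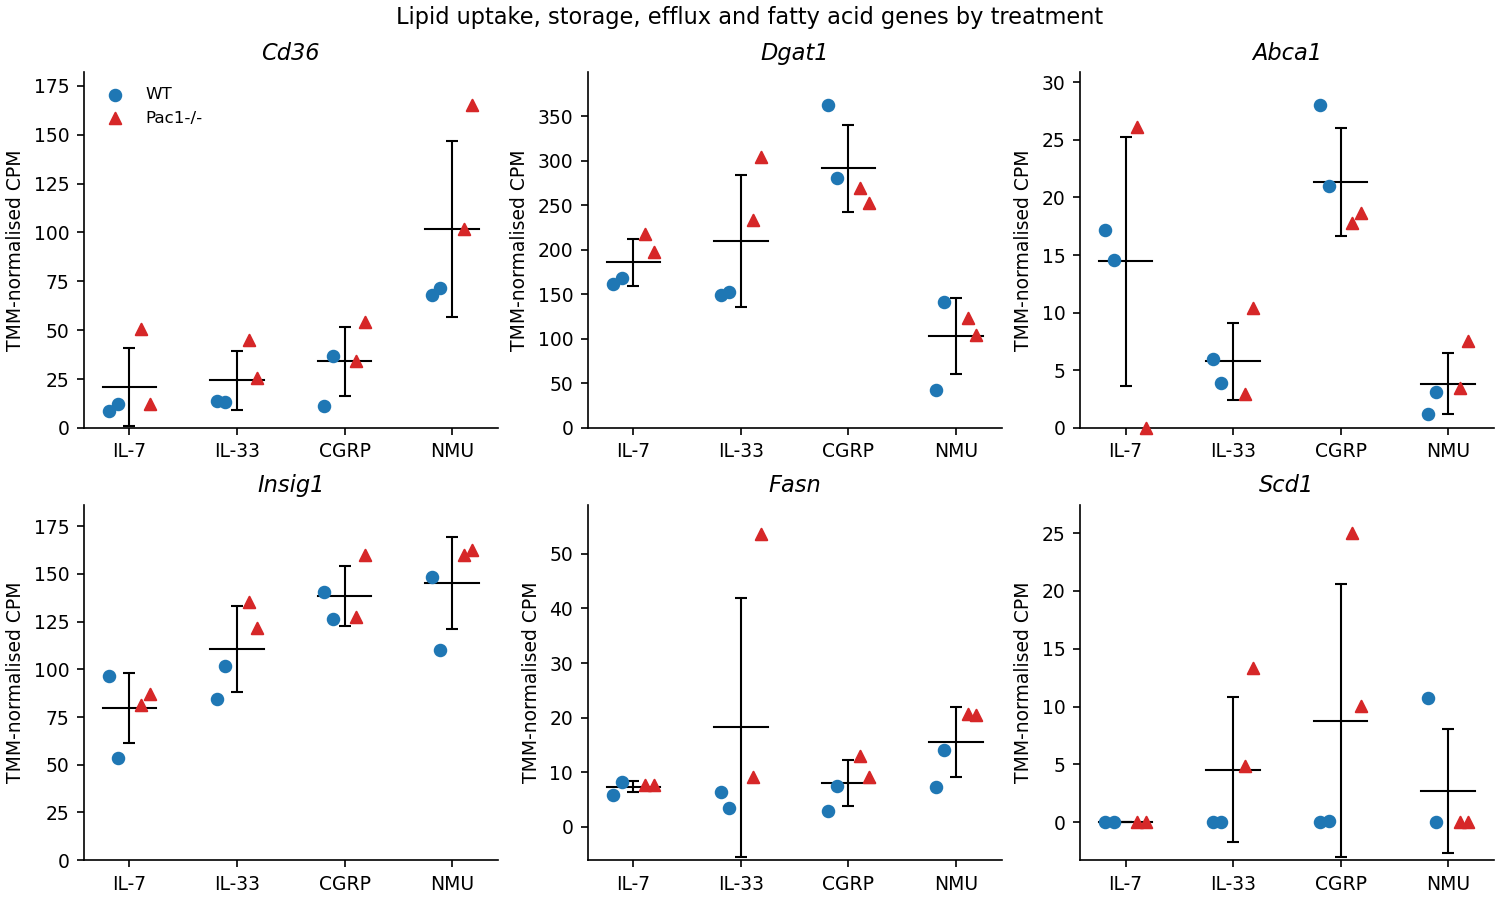
TMM-normalised CPM of 6 members in each library (circles WT, triangles *Pac1*-/-), with mean lines and SD bars of the 4 libraries per treatment. *Cd36* is at 68.0 to 165 CPM in the NMU libraries and at most 54.3 CPM elsewhere, *Dgat1* is lowest with NMU, *Abca1* is at 17.8 to 28.1 CPM with CGRP, and *Fasn* and *Scd1* are high in single libraries.

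Genotype was examined over all treatments, within each treatment, and as a difference in response. Over the 16 libraries with treatment as a covariate, 0 members were called by edgeR (0.0801% of all genes), and 4 (11.8%, against 6.15%) had an unadjusted *P* under 0.05. *Cd36* ranked first, with a median of 47.9 CPM (12.3 to 165) in 8 *Pac1*-/- libraries and 13.4 CPM (8.73 to 71.6) in 8 WT libraries (log2 fold change 1.21 ± 0.32, edgeR adjusted *P* = 0.458). The treatments differed widely in *Cd36*, so the ranges overlap, but within IL-7, IL-33, and NMU both *Pac1*-/- libraries lay above both WT libraries. The margin with IL-7 was narrow, since the values were 8.73 and 12.0 CPM in WT and 50.7 and 12.3 CPM in *Pac1*-/- ILC2s. DESeq2 called *Cd36* (adjusted *P* = 0.0297, with 0.521% of all genes called). *Fasn*, the fatty acid synthase gene, had a median of 11.1 CPM (7.76 to 53.7) in *Pac1*-/- and 6.85 CPM (2.85 to 14.0) in WT libraries (log2 fold change 1.20 ± 0.49, edgeR adjusted *P* = 0.803), the highest value being that of the second *Pac1*-/- IL-33 library. *Cd36* and *Fasn* were the members with both *Pac1*-/- libraries above both WT libraries in at least 3 treatments, as were 2.04% of all genes. *Idi1* was lower in *Pac1*-/- libraries, with a median of 159.1 CPM (89.2 to 240.1) against 207 CPM (163 to 339) in WT (log2 fold change -0.44 ± 0.18, edgeR adjusted *P* = 0.803). The fourth was *Pmvk*, with 0.90 ± 0.41. Without either WT IL-33 library or the second *Pac1*-/- IL-33 library, 2 members had an unadjusted *P* under 0.05.

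Within single treatments, 2 libraries faced 2, and edgeR called 0 members in each. With IL-7, 2 of 32 members tested had an unadjusted *P* under 0.05 (6.25%, against 5.74% of 10912 genes, of which 0.00916% were called), and 1 without the first *Pac1*-/- library. The smallest was that of *Msmo1*, with 298 and 350.3 CPM in WT and 491 and 439.7 CPM in *Pac1*-/- ILC2s (log2 fold change 0.52 ± 0.17, edgeR adjusted *P* = 0.726). With IL-33, there were 7 of 32 (21.9%, against 5.04% of 11448 genes, 0.00874% called), all higher in *Pac1*-/- ILC2s, and they were *Scd1*, *Hsd17b7*, *Fasn*, *Sqle*, *Dgat1*, *Cd36*, and *Srebf2*. Their number depended on single libraries. It was 4 without the first and 2 without the second WT library, 9 (7 higher and 2 lower) without the first and 3 without the second *Pac1*-/- library, and 4 of 34 in a fit of all 16 libraries. *Scd1*, the stearoyl-CoA desaturase gene, had 0 counts in both WT IL-33 libraries and 85 and 163 counts in the *Pac1*-/- ones, at least 34.6-fold higher against a floor of 3 counts per library (edgeR adjusted *P* = 0.913), or at least 18.5-fold without the higher *Pac1*-/- library. It was the member called by DESeq2 (0.577% of all genes called). The highest values of *Fasn* and *Srebf2* in the whole series, 53.7 and 72.4 CPM, belong to the second *Pac1*-/- IL-33 library.

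With CGRP, 4 of 29 members tested had an unadjusted *P* under 0.05 (13.8%, against 7.53% of 10912 genes, 0% called), and 2 without the second *Pac1*-/- library. They were *Scd1*, *Mvd*, *Nsdhl*, and *Acat2*, which were at 0 to 9 counts in both libraries of 1 genotype and so passed the filter on low counts through the other genotype. Their count is therefore no support for a genotype difference, and the same holds for *Scd1* with IL-33. *Scd1* again ranked first, with 0 and 1 counts in WT and 246 and 78 counts in *Pac1*-/- libraries (edgeR adjusted *P* = 0.552). *Mvd*, a mevalonate pathway gene, had 0 counts in both WT libraries and 188 and 18 counts in *Pac1*-/- ones, at least 35.9-fold higher, or at least 7.81-fold without the higher *Pac1*-/- library. *Nsdhl*, a sterol dehydrogenase gene, had 677 and 19 counts in WT and 0 in both *Pac1*-/- libraries. *Acat2* was the other one, with 8.73 and 19.9 CPM in WT and 0.913 and 0.129 CPM in *Pac1*-/- ILC2s. DESeq2 called 3 of these members (1.85% of all genes), *Scd1*, *Mvd*, and *Nsdhl*. With NMU, there were 2 of 31 (6.45%, against 5.04% of 10621 genes, 0.0282% called). *Nsdhl* had 27.4 and 31.0 CPM in WT and 7.74 and 6.30 CPM in *Pac1*-/- ILC2s (log2 fold change -2.05 ± 0.58, edgeR adjusted *P* = 0.903). *Cd36* was the other member, and the genotype difference in NMU libraries is the one to which the alveolar transcripts of the WT libraries belong, whose part was not tested.

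Whether the genotypes responded differently was tested as an interaction on 8 libraries. For IL-33 over IL-7, 0 of 33 members tested had an unadjusted *P* under 0.05 and 0 were called, against 5.65% and 0% of 12980 genes. Leaving out 1 library gave 0 to 6 members under that *P*, the highest number without the first *Pac1*-/- IL-33 library. *Abcg1*, the second sterol exporter gene, had the smallest *P* value, and its libraries ranged from 0 to 11.3 CPM, with 1.27, 0, 0.174, and 11.3 CPM with IL-7 and 5.65, 6.91, 0.569, and 0.571 CPM with IL-33 (edgeR adjusted *P* = 0.797). For CGRP over IL-33, 6 of 32 members had an unadjusted *P* under 0.05 (18.8%, against 5.46% of 13160 genes) and 0 were called (0% of all genes). They were *Nsdhl*, *Mvd*, *Acat2*, *Dgat1*, *Hmgcs1*, and *Lss*. Of these, *Nsdhl*, *Mvd*, *Acat2*, and *Lss* were at 0 to 9 counts in both CGRP libraries of 1 genotype. The number of members is therefore no support for a difference in response. *Nsdhl* had 35.6 and 29.0 CPM in WT and 52.6 and 15.8 CPM in *Pac1*-/- ILC2s with IL-33, and 60.3, 2.08, 0, and 0 CPM with CGRP (edgeR adjusted *P* = 0.853). DESeq2 called *Nsdhl* and *Mvd* (0.859% of all genes called), both low or at 0 in whole groups. *Hmgcs1*, counted in every library, had a log2 fold change with CGRP of -0.49 ± 0.28 in WT and -2.0 ± 0.45 in *Pac1*-/- ILC2s, a difference of -1.52 ± 0.53 (edgeR adjusted *P* = 0.853). *Dgat1* had 1.12 ± 0.25 in WT and -0.04 ± 0.29 in *Pac1*-/- ILC2s, a difference of -1.16 ± 0.38 (edgeR adjusted *P* = 0.853). For NMU over IL-33, 3 of 33 members had an unadjusted *P* under 0.05 (9.09%, against 6.37% of 12567 genes) and 0 were called (0% of all genes). *Scd1*, with the smallest *P* value (edgeR adjusted *P* = 0.764), was counted in the *Pac1*-/- IL-33 libraries and in the first WT NMU library (70 counts), which is the one with the most alveolar transcripts, and was at 0 in the other NMU libraries. Without the first *Pac1*-/- IL-33 or NMU library, 5 members had an unadjusted *P* under 0.05. DESeq2 called 0 members for the interactions with IL-33 and with NMU, against 0.462% and 0.302% of all genes.

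The 11 members that reached an unadjusted *P* under 0.05 in none of these comparisons, the fits within 1 genotype included, were *Mvk*, *Fdps*, *Sc5d*, *Dhcr7*, *Srebf1*, *Scap*, *Acaca*, *Scd2*, *Abcg1*, *Pparg*, and *Fabp5*. The triglyceride synthase gene *Dgat2* did so only within WT, with log2 fold changes of -3.99 ± 1.10 for CGRP over IL-33 and 3.84 ± 1.13 for NMU over CGRP, and *Plin2* only within WT for CGRP (-1.84 ± 0.58). The lipid droplet coat gene *Plin2* had 134.6 ± 51.4 CPM with IL-33 and 80.1 ± 64.9 CPM with CGRP (SD, *n* = 4), and ranged from 23.7 to 174 CPM within the CGRP libraries. *Fabp5*, a fatty acid carrier gene, had means of 23.4 to 27.3 CPM over the 4 treatments, with SDs of 8.89 to 13.0 CPM.

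Other genes of the same pathways were read from 5 lists. Of 12 further sterol synthesis and SREBP genes, edgeR called 0 in each of the treatment comparisons, against 2.46% of all genes for CGRP over IL-33 and 4.97% for NMU over CGRP, and 9 of 12 were lower with CGRP than with IL-33 (median -0.46). Of 9 tested genes of LXR signalling, efflux, and esterification 0 were called, with medians of -0.64 for CGRP and -0.46 for NMU against IL-33. In the list of fatty acid uptake and triglyceride storage, 1 of 9 tested genes was called in each of 2 comparisons. *Hilpda*, which encodes a lipid droplet protein that restrains lipolysis, rose with CGRP from 1102 and 1285 CPM in WT and 1125 and 778 CPM in *Pac1*-/- ILC2s to 2361, 2176, 2633, and 2051 CPM (log2 fold change 1.10 ± 0.20, edgeR adjusted *P* = 0.00822), and with NMU it was at 1282, 755, 1512, and 1119 CPM, lower than with CGRP (-0.98 ± 0.20, edgeR adjusted *P* = 0.00901). All 4 CGRP values exceeded every other value of this gene. *Elovl5*, a fatty acid elongase gene and 1 of 8 tested in its list, fell by 0.78 ± 0.19 on the log2 scale with NMU against CGRP (146, 160.4, 167, and 108 CPM against 246, 231, 284, and 236 CPM, edgeR adjusted *P* = 0.0264). *Acadvl*, a mitochondrial fatty acid oxidation gene and 1 of 12 tested in its list, was called lower with CGRP than with IL-33 (edgeR adjusted *P* = 0.0434) and higher with NMU than with CGRP (edgeR adjusted *P* = 0.0332). It had 0, 3, 0, and 0 counts in the CGRP libraries, 244, 76, 427, and 24 counts with IL-33, and 34, 343, 0, and 65 counts with NMU, so the NMU and CGRP ranges overlap. No gene of these lists was called with IL-33 against IL-7 or with NMU against IL-33 by edgeR, where 7 and 6 of the 50 tested had an unadjusted *P* under 0.05, against 9.49% and 6.74% of all genes.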

How the data were processed

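Bulk mRNA-Seq measured 16 libraries of sorted lung ILC2s. After full-length cDNA amplification and a Tn5-based library step, paired-end reads were aligned by the authors with HISAT2 to mm10, and the deposited values are raw counts per Ensembl gene. The counting tool, annotation, and use of strand are not given in the sources used here, so overlapping and antisense genes cannot be told apart. Amplification without molecular identifiers means that 3-count floors cover counting error only. The number of columns of no sample was 0.

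Groups came from the sample titles. Members and lists were chosen with earlier results of these data known. Counts were fitted with edgeR 4.0.16 (R 4.3.3, limma 3.58.1; TMM, filterByExpr, quasi-likelihood test), with DESeq2 1.42.0 as an alternative. The authors also used DESeq2, in another version. Calls needed a Benjamini-Hochberg adjusted *P* value under 0.05 over all genes tested and a fold change above 1.5. SE is the log2 fold change divided by the square root of F. No prior count was set for the fitted log2 fold changes, so edgeR used its default. A prior count of 2 was used only for the log2 levels behind the correlations of same-numbered libraries. Scripts were tested on simulated data.

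Per-library values are given for called members, for the 3 members with the smallest *P* in each treatment comparison and over genotype, and for the 1 with the smallest within treatments and interactions. *Pmvk*, *Abca1*, *Mvd*, *Acat2*, *Srebf2*, *Dgat2*, *Plin2*, *Fabp5*, and the values of *Hmgcs1* and *Dgat1* by genotype were added after their values were seen. Other genes named are accounted for by count. TPM used exon lengths of GENCODE M21 (51719 of 51912 genes matched). Near-identical stretches (BLAST 2.17.0) had at least 95% identity over 100 bases. Figures used Python 3.11.15 with matplotlib 3.10.9. Alternatives were other size factors, filters, cutoffs, and libraries, a replicate block, and, added after seeing the data, each genotype alone.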

Additional observations from a re-analysis of the deposited data

Results flagged for a closer look

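Of 52 sets of 4 libraries examined (13 named members in each treatment), 6 held a library whose gap to its nearest neighbour exceeded Dixon's 95% critical value. About 1 in 20 sets of normally distributed values would pass it. These members were picked by small *P* values in the same data and some sets hold zeros, so the number flagged cannot be set against that rate. *Nsdhl* had 60.3 CPM in the first WT CGRP library, against 0 to 2.08 CPM in the other CGRP libraries. *Fasn* had 53.7 CPM in the second *Pac1*-/- IL-33 library, against 3.50 to 9.22 CPM in the other IL-33 libraries, and 5.80 CPM in the first WT IL-7 library, against 7.76 to 8.16 CPM in the other IL-7 libraries. *Scd1* had 10.8 CPM in the first WT NMU library and 0 in the other NMU libraries. *Abcg1* had 11.3 CPM in the second *Pac1*-/- IL-7 library, against 0 to 1.27 CPM in the others. *Cd36* had 50.7 CPM in the first *Pac1*-/- IL-7 library, against 8.73 to 12.3 CPM in the others.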

How the results depend on the processing

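With 2 libraries per group, the values of *Nsdhl* and *Mvd* with CGRP rest mainly on 1 library each. Of the values of 13 named members under the alternatives, 298 kept direction and side of the threshold, 25 passed it in addition, 7 no longer passed it, and 0 reversed. DESeq2 called 1 member for IL-33, 5 for CGRP, and 1 for NMU against IL-33, 5 for NMU against CGRP, 1 over genotype, 1 and 3 for genotype within IL-33 and CGRP, and 2 for the CGRP interaction. Without a filter, 4 members were called for CGRP, 1 for NMU against IL-33, and 1 each for genotype within CGRP and for the CGRP and NMU interactions. With at least 10 counts in every library, the numbers were 4 for CGRP, 1 for NMU against IL-33, and 5 for NMU against CGRP. Only the libraries of both treatments gave 1 for NMU against IL-33. Within WT and within *Pac1*-/- alone, 0 members were called for NMU against CGRP. Leaving out 1 library of the compared treatments gave 0 to 2 members for CGRP and 1 to 3 for NMU against CGRP. In the latter, *Nsdhl*, *Cd36*, *Pmvk*, and *Scd1* were called without the first WT CGRP, second WT CGRP, second *Pac1*-/- CGRP, and first WT NMU library, respectively. The cause of these changes was not tested.

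Genes called numbered 2, 368, 23, 744, and 12 by edgeR for IL-33, CGRP, NMU against IL-33, NMU against CGRP, and genotype, and 173, 1078, 257, 1706, and 78 by DESeq2. For CGRP, 245 were higher and 123 lower, against 202 and 28 with only the libraries of both treatments. For NMU against CGRP, 371 were higher and 373 lower, against 185 and 310 in the corresponding fit.

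Deviations of same-numbered libraries correlated at -0.064 to 0.039 over 28 pairs of groups, so no pairing by replicate number was seen. Values near 0 cannot exclude a shared mouse or culture, since the spread between small amplified libraries could mask it. With the replicate block, members called were 0 for IL-33, 0 for CGRP, 0 for NMU against IL-33, 3 for NMU against CGRP, and 0 over genotype, and genes called were 0, 338, 18, 694, and 12.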
